A study of Mus musculus with 20 samples.

Results

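Islets of Langerhans that had been grafted under the kidney capsule were compared with islets that had stayed in the pancreas, both from XX donors and both in the non-pregnant state (NP). The comparison holds 7 of the 20 arrays of the series, chosen by their titles: 3 grafts and 4 samples of pancreatic islets. All mice were C57bl6/J. The NP islets were isolated with collagenase from the pancreas of non-pregnant females. The NP grafts were fresh islets of female donors placed under the left kidney capsule of adult female hosts that had been made diabetic with streptozotocin, a toxin taken up by beta cells. The paper reports that body weight and fed blood glucose after transplantation resembled those of mice without a graft, also in the non-pregnant state. The sources used here describe no such treatment of the islet mice, and the islet arrays are marked in the labels as a reanalysis of earlier data, so host diabetes and array batch cannot be told apart from transplantation. The labels call the samples biological replicates but name no animals, so the p-values reflect the spread among samples, which may be partly technical. That spread was pooled over all 6 groups of the 20 arrays. SEs and p-values therefore also draw on arrays outside the comparison. The same comparison on day 12.5 of pregnancy (P12.5), with 3 grafts and 4 islet samples of its own, is set beside the NP values, and so are 3 NP grafts of XY donors, whose comparison shares the 4 islet arrays.

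Pancreatic islets are clusters of endocrine cells, mostly insulin-producing beta cells with glucagon-producing alpha cells and somatostatin-producing delta cells, fed by a dense bed of fenestrated capillaries and surrounded by acinar cells that make digestive enzymes. Collagenase isolation frees islets from that exocrine tissue, though acinar fragments often come along, and it cuts their vessels and nerves. Under the kidney capsule the tissue is bordered by the mesothelium-covered capsule on one side and by the tubules of the renal cortex on the other, and host vessels, fibroblasts and leukocytes grow into it.

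Expression is given in log2 units per probe set, where a difference of 1 is 2-fold. A probe set was called at a limma adjusted p under 0.05 with a fold of at least 1.5. Of 35511 probe sets 3911 were called (11.0%), 2128 higher and 1783 lower in the grafts. These counts include probe sets without a gene symbol. Over 19938 genes, each represented by 1 probe set, 1296 were called higher (6.50%) and 434 lower (2.18%), against a median difference over all genes of -0.075. These shares are the background for the NP counts of every gene list of XX grafts below. Called genes that were higher differed by a median of 1.02 and those that were lower by -0.69. A difference of 4-fold or more was found for 191 of the higher and 28 of the lower genes. Arrays of a group correlated at r = 0.984 to 0.989 in the islets and 0.973 to 0.979 in the grafts, and arrays of different groups at 0.933 to 0.953. These r values run over probe sets of an array, not over replicates. The brightest probe set of NP islet array 1 reached 13.4, against 14.5 to 14.6 on the other 6 arrays, and its highest hormone signals were lower too. The lower quartile of an array was 4.7 to 4.9, the low end of the scale, so that folds against a level in that range are not exact sizes.

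**Figure D1:**
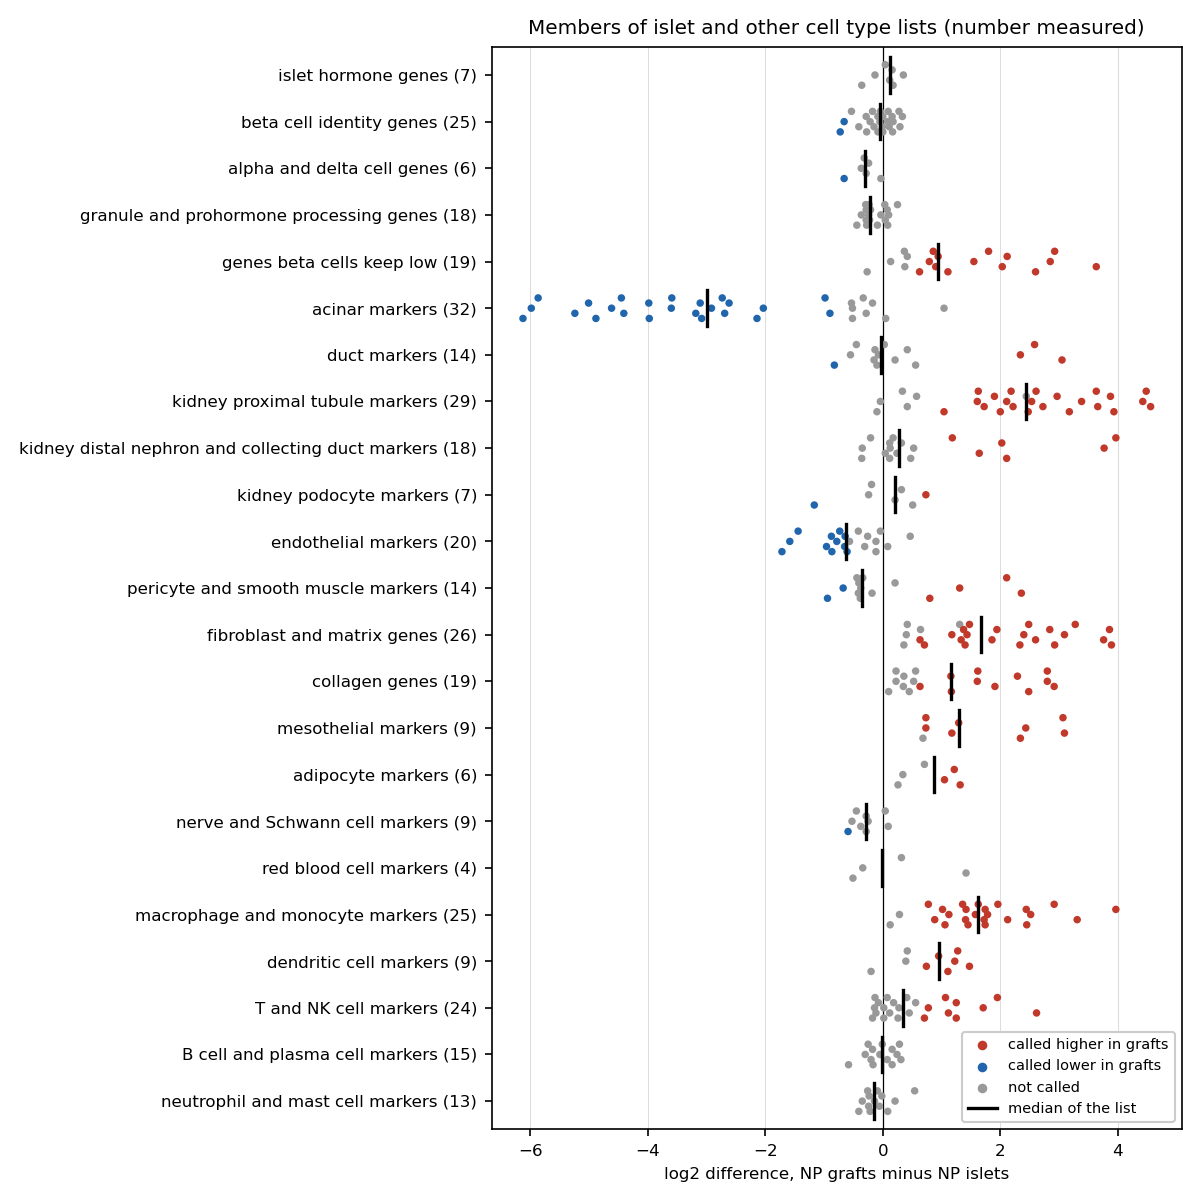
Log2 difference, NP grafts minus NP islets (x axis), of each measured gene (point) in the cell-type marker lists (y axis), coloured by whether it was called higher, called lower or not called, with a bar at each list's median. Acinar markers lie to the left (median -3.0), kidney proximal tubule markers (2.44), fibroblast and matrix genes (1.67) and macrophage markers (1.63) to the right, and the islet hormone (0.12) and beta cell identity lists (-0.04) near 0.

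Hormone mRNA, which defines the labelled tissue, was found in all 7 samples. Ins2, which encodes insulin, stood at 10.2, 10.9, 11.0 and 11.0 in the islets and at 10.9, 11.0 and 10.9 in the grafts. The low islet value is that of array 1, and the other 3 islet arrays overlap the grafts (0.16 ± 0.14 (SE), adjusted p = 0.412). Gcg, the glucagon gene, stood at 12.8, 13.8, 13.8 and 13.8 against 13.6, 13.7 and 13.7 (0.12 ± 0.18, adjusted p = 0.65). Islet array 1 alone lay below the grafts there, and the other 3 islet arrays lay above all 3 of them. Differences were 0.04 for Iapp, the amyloid peptide released with insulin, and -0.13 for Sst, which encodes somatostatin. Of 7 measured hormone genes 0 were called in either direction by limma, and their mean level was 11.5 to 12.2 in the islets and 12 in each graft.

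Beta cell identity genes, which encode the transcription factors, glucose sensors and receptors of the mature beta cell, included 2 lower and 0 higher calls among 25, with a median of -0.04. Their mean level was 9.87 to 9.95 in the islets and 9.75 to 9.94 in the grafts. Mafa, a transcription factor of mature beta cells that binds the insulin promoter, was at 9.1, 8.5, 8.6 and 8.7 in the islets and 7.9, 8.0 and 8.1 in the grafts. All 3 grafts lay below all 4 islet samples, by 1.65-fold (-0.72 ± 0.18, adjusted p = 0.00687). At P12.5 Mafa differed by -0.15 and in the grafts of XY islets by -0.23, and neither passed the test. Nkx6-1, a transcription factor that keeps beta cells from taking on other islet fates, was at 10.1, 10, 9.9 and 10.1 in the islets and 8.8, 9.3 and 10 in the grafts. Grafts 1 and 2 were low and graft 3 lay within the islet range (-0.66 ± 0.21, adjusted p = 0.0267). The call was lost in a fit of the compared arrays alone and with the replicate number as a block. It was also lost without graft 1, graft 2, islet array 1 or islet array 4. Pdx1, the transcription factor on which pancreas formation and beta cell function depend, differed by 0.00 ± 0.16. The glucose transporter gene Slc2a2 differed by 0.28 and Slc30a8, the zinc carrier of insulin granules, by 0.11, neither called.

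Genes of the other endocrine cells and of the secretory granule gave 1 call in all. Among 6 alpha and delta cell genes, Rbp4, a retinol carrier that delta cells express, was lower (10, 10.5, 10.1 and 9.9 against 9.6, 9.5 and 9.3, a difference of -0.66 with an adjusted p of 0.00685), and every graft lay below every islet sample. That call was lost without graft 3 or without islet array 2. Irx2, an alpha cell transcription factor, differed by -0.37 (adjusted p = 0.00379), under the fold threshold. None of 18 granule and prohormone processing genes was called (median -0.22), among them the convertase gene Pcsk1 (0.25) and the carboxypeptidase gene Cpe (0.08).

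Exocrine mRNA was far lower in the grafts. Of 32 acinar markers, which encode digestive enzymes, their cofactors and acinar transcription factors, 24 were called lower, where 2.18% of all genes were, and 0 higher (median -3.0). Their mean level was 6.77 to 8.30 in the islets and 4.99 to 5.04 in the grafts. In bulk samples fewer cells of a type and less RNA per cell cannot be told apart. CACCTG, the E box letters bound by the acinar transcription factor PTF1 with its partner, was searched on both strands of the 250 bases before the start of transcription. The letters were in 16 of the 28 promoters found for 27 of the list's genes (57.1%), against 17.2% of all 32851 RefSeq promoters, which describes the promoters and shows no binding. The promoters of Cel and Cela1 are printed because both genes were lower and their promoters hold 4 matches and 1 match, with the match on either strand in capitals. Both are on the minus strand of GRCm38.p6, Cel at chr2:28563404-28563653 with 4 matches that start 170, 154, 134 and 65 bases upstream, and Cela1 at chr15:100687921-100688170 with 1 match 109 bases upstream.
Cel: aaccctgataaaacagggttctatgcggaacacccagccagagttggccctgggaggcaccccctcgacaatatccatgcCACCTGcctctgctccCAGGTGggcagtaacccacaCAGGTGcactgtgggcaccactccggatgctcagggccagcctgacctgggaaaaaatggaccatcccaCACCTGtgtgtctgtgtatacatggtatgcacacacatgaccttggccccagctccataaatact
Cela1: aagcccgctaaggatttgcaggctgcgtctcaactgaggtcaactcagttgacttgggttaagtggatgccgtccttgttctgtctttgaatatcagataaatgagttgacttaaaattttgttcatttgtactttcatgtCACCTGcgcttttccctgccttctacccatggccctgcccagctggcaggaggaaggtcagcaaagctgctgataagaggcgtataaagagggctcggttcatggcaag

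Cel, which encodes the bile salt-activated lipase, was at 10.5, 10.8, 8.3 and 10.3 in the islets and 4.8, 4.7 and 4.7 in the grafts, a 37.8-fold difference (-5.24 ± 0.44, adjusted p = 1.17e-06). Cpb1, a carboxypeptidase gene, was at 11.0, 11.4, 9.0 and 11.1 in the islets and 4.5, 4.8 and 4.2 in the grafts (-6.12 ± 0.43, adjusted p = 1.02e-07). For both genes islet array 3 was the lowest of the islets, and the grafts lay below that array too. Cela1, which encodes an elastase, was at 9.7, 10.1, 7.7 and 9.5 against 6.3, 6.2 and 6.0 (-3.08 ± 0.41, adjusted p = 0.000103), again without overlap. The chymotrypsinogen gene Ctrb1 differed by -5.98, the carboxypeptidase gene Cpa1 by -5.87, the elastase gene Cela2a by -4.62 and the amylase gene Amy1 by -0.98. Trypsinogen genes such as Try5 (-5.01) and Prss2 (-3.60) are near-identical copies, so their single values are uncertain. The 8 markers that were not called include the transcription factor genes Ptf1a (0.05), Rbpjl (-0.33) and Bhlha15 (-0.52), and Spink1, a trypsin inhibitor gene, at 1.04 with an adjusted p of 0.0661. At P12.5 22 of the 32 were lower and 0 higher (median -2.77), where 0.622% of all genes were called lower and 4.03% higher, and in XY grafts the median was -2.95.

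Duct markers, which label the cells that drain the acini, gave 3 higher and 1 lower call among 14, with a median of -0.03. The 3 that were higher were Krt19 (2.34), a keratin gene also on the mesothelial list, the carbonic anhydrase gene Car2 (2.58) and the bicarbonate transporter gene Slc4a4 (3.05), which kidney tubules also express. Krt8, a keratin gene of simple epithelia, was lower (-0.82, adjusted p = 0.00171). Sox9, a transcription factor of duct cells, differed by -0.07 and Epcam, an epithelial adhesion gene, by 0.03, neither called.

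**Figure D2:**
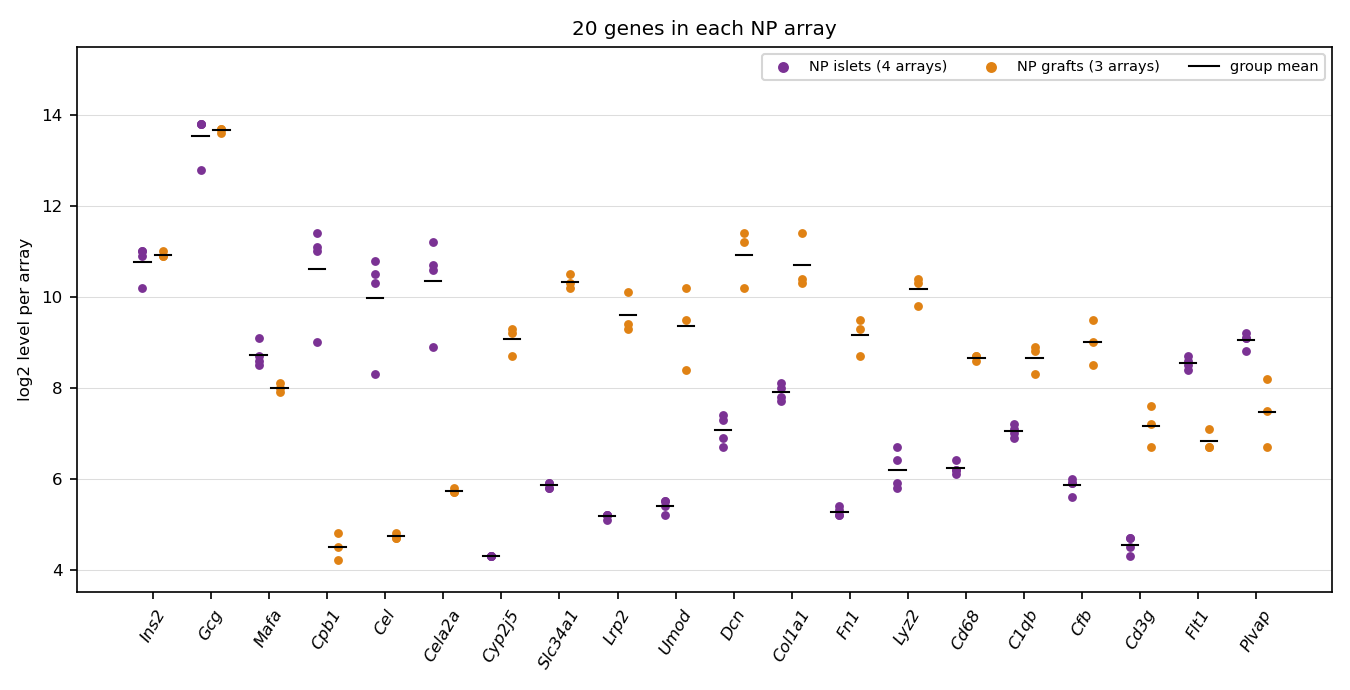
Log2 expression level (y axis) of 20 genes (x axis) in each of the 4 NP islet samples and 3 NP grafts, with a line at each group's mean. Cpb1, Cel and Cela2a are lower in every graft, the kidney, matrix and macrophage genes are higher in every graft, and the grafts lie within the islet range for Ins2 and Gcg.

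Kidney mRNA was found in the NP grafts. Of 29 proximal tubule markers, which encode the transporters and enzymes of the segment that reclaims most of the filtrate, 23 were called higher, where 6.50% of all genes were, and 0 lower (median 2.44). Their mean level was 5.35 to 5.49 in the islets and 7.59 to 8.05 in the grafts. Slc34a1, the phosphate transporter of the tubule's brush border, was at 5.8, 5.8, 5.9 and 5.9 in the islets and 10.3, 10.2 and 10.5 in the grafts, 22.4-fold higher (4.48 ± 0.71, adjusted p = 0.000313). Lrp2, which encodes the endocytic receptor megalin, was at 5.2, 5.2, 5.1 and 5.2 in the islets and 10.1, 9.3 and 9.4 in the grafts (4.42 ± 0.57, adjusted p = 7.53e-05). In both genes the 3 grafts were close to each other and far above the islets. Cyp2j5, an epoxygenase gene of the kidney outside the list, was at 4.3 on all 4 islet arrays and at 9.2, 8.7 and 9.3 in the grafts (4.77 ± 0.71, adjusted p = 0.000204), the largest difference of any called gene that was higher. The sulphate transporter gene Slc13a1 differed by 4.56, the lactate transporter gene Slc5a12 by 3.88 and the glucose transporter gene Slc5a2 by 2.73.

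The 6 proximal tubule markers that were not called were Agt (0.33), Cyp4b1 (0.57), Kap (2.44), Slc7a13 (-0.10), Slco1a1 (-0.04) and Ttc36 (0.42). Kap, the androgen-regulated kidney protein gene, was at 4.5, 4.7, 4.4 and 4.5 in the islets and 10.6, 5.3 and 5.0 in the grafts (adjusted p = 0.0696). Graft 1 alone was high, and the other grafts were within 1 unit of the islets. Distal nephron and collecting duct markers gave 6 higher and 0 lower calls among 18 (median 0.28). Umod, the uromodulin gene of the thick ascending limb, was at 5.2, 5.5, 5.4 and 5.5 against 10.2, 8.4 and 9.5 (3.97 ± 0.45, adjusted p = 2.72e-05). Slc12a3, the thiazide-sensitive salt transporter gene of the distal convoluted tubule, was at 6.1, 5.8, 5.7 and 6.0 against 10.1, 9.2 and 9.7. All 3 grafts were above all islet samples in both genes, whereas the collecting duct water channel genes Aqp2 (0.04) and Aqp3 (0.17) were not called. Among 7 podocyte markers, Wt1 was higher (0.73, lost without graft 1 or islet array 2 or 4), a transcription factor also on the mesothelial list, and Podxl was lower (-1.17), a sialomucin that endothelium also carries. The slit diaphragm gene Nphs1 differed by -0.24, not called.

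The proximal tubule list had a mean level of 6.06 to 7.95 in the NP grafts of XY donors, with 21 of 29 called higher, and of 5.79 to 6.99 in the P12.5 grafts of XX donors, with 4 of 29 called higher (median 1.03). Slc34a1 was at 7.6, 10.5 and 9.6 in the XY grafts, so the first of these was nearer the islets. None of the 29 genes passed the test of the difference between the NP and the P12.5 comparison. A site form of the tubule and islet factor HNF1, searched on both strands as GTTAAT, any base and ATTAAC, was in 0 of 23 proximal tubule promoters and in 0.00913% of all promoters, from which nothing follows about that factor.

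**Figure D3:**
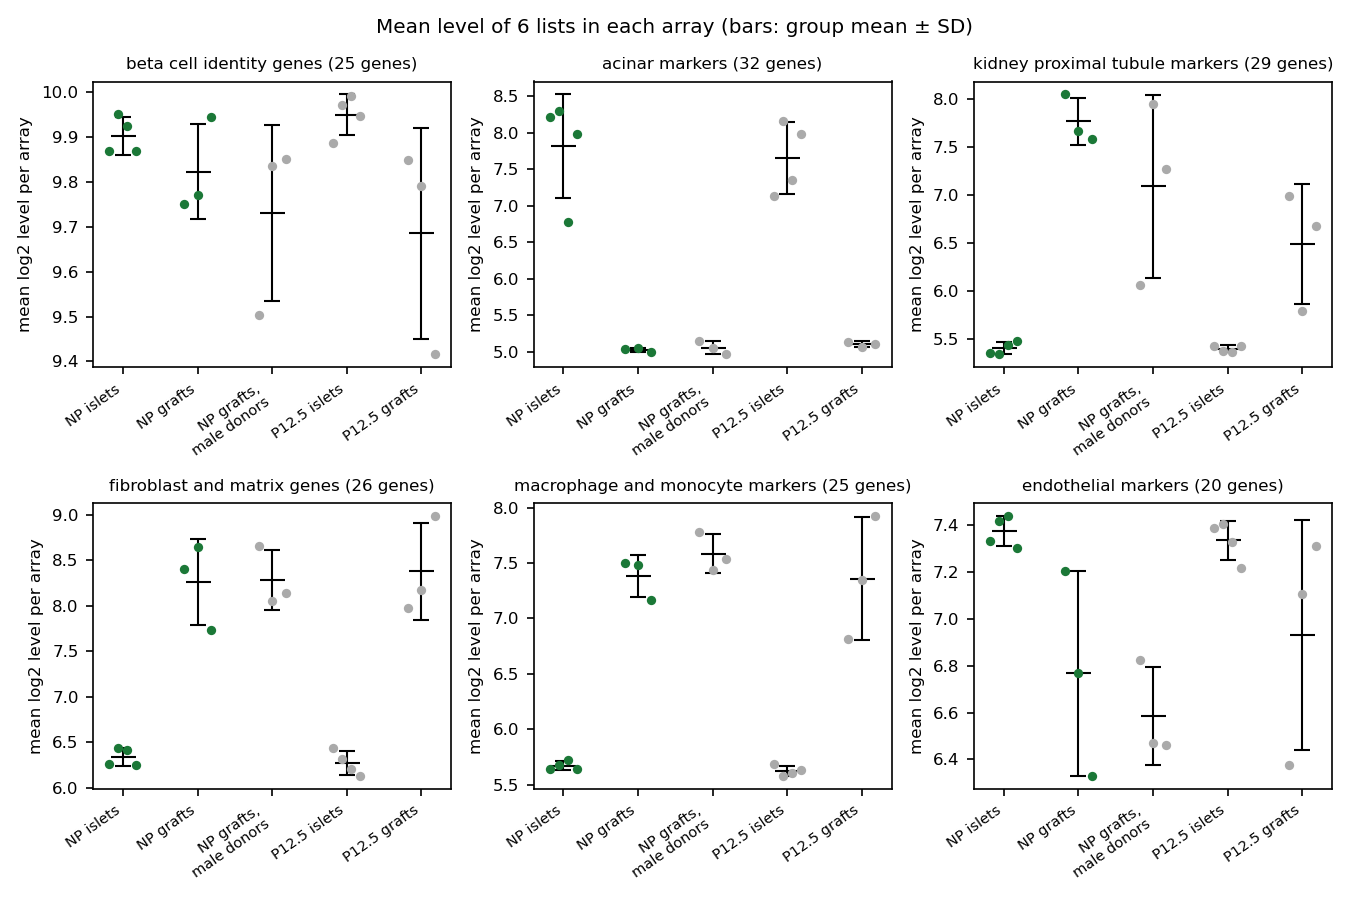
Mean log2 expression level of 6 gene lists (1 panel each, y axes differ) per array, with bars at the group mean and SD, for NP islets and NP grafts of XX donors (green) and, in grey, NP grafts of XY donors, P12.5 islets and P12.5 grafts of XX donors. Proximal tubule markers were at 7.59 to 8.05 in the NP grafts and 5.79 to 6.99 in the P12.5 grafts, and acinar markers were below 5.2 in all graft groups shown.

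Genes of connective tissue were higher in the grafts. Of 26 fibroblast and matrix genes 21 were called higher and 0 lower (median 1.67), and the mean level was 6.25 to 6.43 in the islets and 7.73 to 8.65 in the grafts. Dcn, which encodes the collagen-binding proteoglycan decorin, was at 6.9, 7.3, 7.4 and 6.7 in the islets and 11.2, 11.4 and 10.2 in the grafts, 14.5-fold higher (3.86 ± 0.36, adjusted p = 3.11e-06). Fn1, the fibronectin gene, was at 5.2, 5.2, 5.4 and 5.3 against 9.5, 9.3 and 8.7 (3.89 ± 0.27, adjusted p = 1.02e-07). Graft 3 was the lowest of the grafts in both genes and still far above the islets. Ogn, a small leucine-rich proteoglycan gene outside the list, differed by 4.42, the insulin-like growth factor binding protein gene Igfbp6 by 3.76 and the fibroblast receptor gene Pdgfra by 2.60. The 5 genes not called were Clec3b (0.36), Gsn (0.42), Postn (1.31), Thy1 (0.40) and Timp1 (0.64). At P12.5, 21 of the 26 were called higher (median 1.8).

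Of 19 collagen genes 11 were called higher and 0 lower (median 1.16). Col1a1, a chain of the fibrillar type I collagen, was at 7.8, 8.1, 8.0 and 7.7 in the islets and 10.4, 11.4 and 10.3 in the grafts (2.80 ± 0.38, adjusted p = 0.000112). The groups did not overlap, with graft 2 the highest. The fibrillar chain gene Col3a1 differed by 2.29, the fibril-associated Col14a1 by 2.48 and Col12a1 by 2.92. The basement membrane chain genes Col4a1 and Col4a2 each differed by 0.23 and were not called, and of the other type IV chains Col4a4 passed (0.63). Pericyte and smooth muscle markers gave 4 higher and 2 lower calls among 14. The actin gene Acta2 (2.11), Tagln (2.36) and Myl9 (1.31), all of the contractile apparatus that myofibroblasts also make, and the receptor gene Pdgfrb (0.80) were higher. The mural adhesion gene Mcam (-0.94) and the pericyte channel subunit gene Abcc9 (-0.68) were lower. The call of Pdgfrb held in 1 of the 7 fits that left out an array, the one without graft 3, and was lost with the replicate block and with repeated quantile normalization. That of Abcc9 was lost without graft 3.

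Mesothelial markers, which label the lining of body cavities and organ surfaces, were called higher for 8 of 9 genes and lower for 0 (median 1.29). Their mean level was 5.70 to 5.74 in the islets and 8.01, 7.60 and 6.76 in grafts 1 to 3. Upk3b, a uroplakin gene of mesothelium, was at 5.8, 5.9, 5.8 and 6.1 against 9.8, 9.2 and 7.9 (3.07 ± 0.34, adjusted p = 1.96e-05). Gpm6a differed by 3.09 and Lrrn4, another mesothelial membrane protein gene, by 2.43. Graft 3 was the lowest of the grafts for Upk3b, as it was for Dcn and Fn1. Msln, the mesothelin gene, was at 7.7 to 8.7 in the islets and 8.4 to 9.5 in the grafts (0.68, adjusted p = 0.0634) and was not called. Adipocyte markers gave 3 higher calls among 6, Fabp4 (1.32), Adipoq (1.22) and Cidec (1.05), with 0 without graft 2 and 1 without graft 3, without islet array 3 or 4 or with the replicate block.

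Of 25 macrophage and monocyte markers 23 were called higher and 0 lower (median 1.63), with a mean level of 5.64 to 5.72 in the islets and 7.17 to 7.50 in the grafts. Lyz2, the lysozyme gene of myeloid cells, was at 5.9, 6.4, 6.7 and 5.8 in the islets and 10.4, 10.3 and 9.8 in the grafts, 15.6-fold higher (3.97 ± 0.24, adjusted p = 2.51e-08). Cd68, a lysosomal glycoprotein gene, was at 6.2, 6.1, 6.4 and 6.2 against 8.7, 8.7 and 8.6 (2.44 ± 0.20, adjusted p = 1.02e-06). The 3 grafts differed little from each other and did not overlap the islets. Gpnmb, a glycoprotein gene of phagocytic macrophages, differed by 3.31, the mannose receptor gene Mrc1 by 2.92 and Adgre1, a surface receptor gene of mature macrophages, by 2.12. Cd163 (0.28) and Trem2 (0.12) were the 2 not called. The pan-leukocyte gene Ptprc was at 5.6 to 5.9 in the islets and 8.1 to 8.4 in the grafts (2.45). At P12.5, 23 of the 25 were called higher again (median 1.76).

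Dendritic cell markers gave 6 higher calls among 9, among them Clec9a (1.48), a receptor for dead cells on cross-presenting dendritic cells, and Itgax (1.23). T and NK cell markers gave 9 higher and 0 lower calls among 24 (median 0.34). Cd3g, a chain of the T cell receptor complex, was at 4.5, 4.7, 4.3 and 4.7 in the islets and 7.2, 6.7 and 7.6 in the grafts (2.62 ± 0.32, adjusted p = 5.1e-05). The other chains of that complex differed less, Cd3e by 0.71 (adjusted p = 0.0348, held without islet array 4 but not without any other array) and Cd3d by 0.18, not called. Cd4 (1.12), Cd8a (0.78) and Cd8b1 (1.07) were called higher, and the killer granule genes Gzmb (0.02) and Prf1 (-0.14) and the regulatory T cell factor Foxp3 (-0.12) were not called. None of 15 B cell and plasma cell markers was called (median -0.01), and Ms4a1, which encodes CD20, stood at 4.1 to 4.4 in the islets and 4.3 to 4.7 in the grafts. None of 13 neutrophil and mast cell markers was called (median -0.14). In the NP grafts of XY donors, compared with the same 4 islet arrays, 16 of 24 T and NK cell markers (median 1.03) and 7 of 15 B cell markers (median 0.66) were called higher. Of all probe sets with 1 symbol 9.53% were called there in either direction, against 8.96% for the XX grafts. XY and XX grafts were not tested against each other here. The paper did so for all probe sets before pregnancy and describes the profiles as nearly identical, with differences at sex chromosome genes.

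Complement genes, whose products tag cells and debris for clearance, were higher for 14 of 15 members and lower for 0 (median 1.84). Cfb, factor B of the alternative pathway, was at 5.6, 5.9, 6.0 and 5.9 in the islets and 9.5, 9.0 and 8.5 in the grafts, 8.88-fold higher (3.15 ± 0.27, adjusted p = 1.49e-06). The classical pathway protease gene C1s1 differed by 3.29, C2 by 2.35, the recognition chain gene C1qb by 1.62 and the inhibitor gene Serping1 by 2.02. Initiators, proteases and an inhibitor of the cascade were all among the calls, and C6, a terminal component, was the 1 not called (-0.13). Of 14 genes of the major histocompatibility complex (MHC) and antigen presentation 8 were called higher (median 0.89). B2m, the invariant chain of MHC class I, was at 9.6, 9.7, 9.8 and 9.6 against 11.5, 11.3 and 11.4 (1.73 ± 0.15, adjusted p = 1.49e-06). The class II chain gene H2-Aa differed by 1.77, and Ciita, the class II transactivator, by 0.33, not called. Of 22 chemokine genes 11 were called higher (median 0.63), with Ccl8 at 2.39, Ccl6 at 1.79 and Ccl5 at 1.71, whereas Ccl2 (-0.11) and Cxcl1 (-0.01) were not called.

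Interferon-induced genes were called higher for 12 of 18 members and lower for 0 (median 0.93), with a mean level of 5.77 to 5.84 in the islets and 6.58 to 6.83 in the grafts. The promoters of Ifit1 and Ifit3, both called higher, are printed because they hold the core of the interferon-stimulated response element, searched on both strands as GAAA followed by any 2 bases and GAAA again and shown in capitals. Of 15 promoters found for 12 genes of the list 6 held these letters (40%), against 2.98% of all RefSeq promoters, which again describes sequence alone. Both are on the plus strand of GRCm38.p6, Ifit1 at chr19:34640639-34640888 with matches starting 104 and 85 bases upstream, and Ifit3 at chr19:34583279-34583528 with matches 156 and 122 bases upstream.
Ifit1: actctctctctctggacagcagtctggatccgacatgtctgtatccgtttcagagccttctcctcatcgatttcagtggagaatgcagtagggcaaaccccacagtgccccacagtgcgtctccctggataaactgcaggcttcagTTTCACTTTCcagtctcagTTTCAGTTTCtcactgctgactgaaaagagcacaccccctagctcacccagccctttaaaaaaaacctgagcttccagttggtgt
Ifit3: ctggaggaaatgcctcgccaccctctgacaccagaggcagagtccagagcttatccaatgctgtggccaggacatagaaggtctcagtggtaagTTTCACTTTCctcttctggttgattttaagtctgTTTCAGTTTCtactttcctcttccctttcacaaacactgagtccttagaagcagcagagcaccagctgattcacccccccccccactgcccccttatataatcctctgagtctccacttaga

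Ifit1, which encodes an RNA-binding antiviral protein, was at 5.3, 5.2, 5.0 and 5.3 in the islets and 6.3, 6.4 and 6.8 in the grafts (1.30 ± 0.22, adjusted p = 0.000617). Ifit3 was at 5.4, 5.3, 5.5 and 5.6 against 7.1, 6.7 and 6.4 (1.28 ± 0.32, adjusted p = 0.00696). Neither gene overlapped between groups, and the graft that was highest differed between them. The guanylate-binding and GTPase genes Gbp3 (1.57) and Iigp1 (1.85) were also higher, and Mx1 (0.50), Usp18 (0.28) and Rsad2 (0.26) were not called. Among 23 inflammation genes 4 were called higher, the leukocyte adhesion gene Vcam1 (2.19), Cd44 (1.02), Birc3 (0.92) and the cytokine gene Il1b (0.66). Il6 differed by 0.31, under the fold threshold, and Tnf by 0.38, not called. Leukocyte markers moved with these genes, 23 of 25 macrophage markers and 9 of 24 T and NK cell markers being called higher, and their part in the complement, MHC and interferon results was not tested.

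Endothelial genes were lower in the grafts. Of 20 endothelial markers 11 were called lower and 0 higher (median -0.63), and the mean level was 7.30 to 7.44 in the islets and 7.21, 6.77 and 6.33 in grafts 1 to 3. Flt1, a receptor for vascular endothelial growth factors, was at 8.5, 8.7, 8.6 and 8.4 in the islets and 7.1, 6.7 and 6.7 in the grafts, 3.29-fold lower (-1.72 ± 0.24, adjusted p = 0.000145). Plvap, which encodes the diaphragm protein of fenestrated capillaries, was at 9.1, 9.1, 9.2 and 8.8 against 8.2, 7.5 and 6.7 (-1.58 ± 0.30, adjusted p = 0.00116). The groups did not overlap in either gene, and graft 1 was the closest to the islets. Kdr, the main signalling receptor for VEGF-A, was at 9.0, 9.0, 9.0 and 8.7 against 8.8, 7.8 and 7.3 (-0.96 ± 0.29, adjusted p = 0.0222), with graft 1 inside the islet range. The sialomucin gene Emcn differed by -1.44. The junction and adhesion genes Pecam1 (-0.57, adjusted p = 0.206) and Cdh5 (-0.04) and the clotting factor gene Vwf (0.08) were not called. The count of 11 was 6 without graft 2 and 4 without graft 3. At P12.5, 3 of 20 were called lower (median -0.36).

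Angiogenic ligands and receptors gave 4 higher and 4 lower calls among 20. The 4 that were lower were the receptor genes Flt1, Kdr and Tie1 (-0.78) and the Notch ligand gene Dll4 (-0.60), all of endothelium. Only Flt1 kept its call without graft 2 or without graft 3, and Tie1 also lost it without any 1 of the 4 islet arrays and with the replicate number as a block. Vegfd, a ligand gene of the VEGF family, was at 5.3, 5.3, 5.3 and 5.4 in the islets and 8.5, 9.2 and 8.4 in the grafts, 10.4-fold higher (3.38 ± 0.40, adjusted p = 3.98e-05). The angiogenesis inhibitor genes Thbs2 (2.46) and Thbs1 (1.5) and the ligand gene Angpt1 (0.84) were also higher. Vegfa, the ligand that beta cells secrete to their capillaries, was at 9.7, 9.8, 9.8 and 9.7 against 9.8, 9.7 and 9.8 and overlapped fully (0.02 ± 0.10, adjusted p = 0.917). Nerve and Schwann cell markers gave 1 lower call among 9, the neurofilament gene Nefl (-0.59). It was lost without graft 2 or 3, without islet array 2 or 3, with array medians subtracted and with repeated quantile normalization. The Schwann cell factor Sox10 differed by -0.53 (adjusted p = 0.000682), under the fold threshold.

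**Figure D4:**
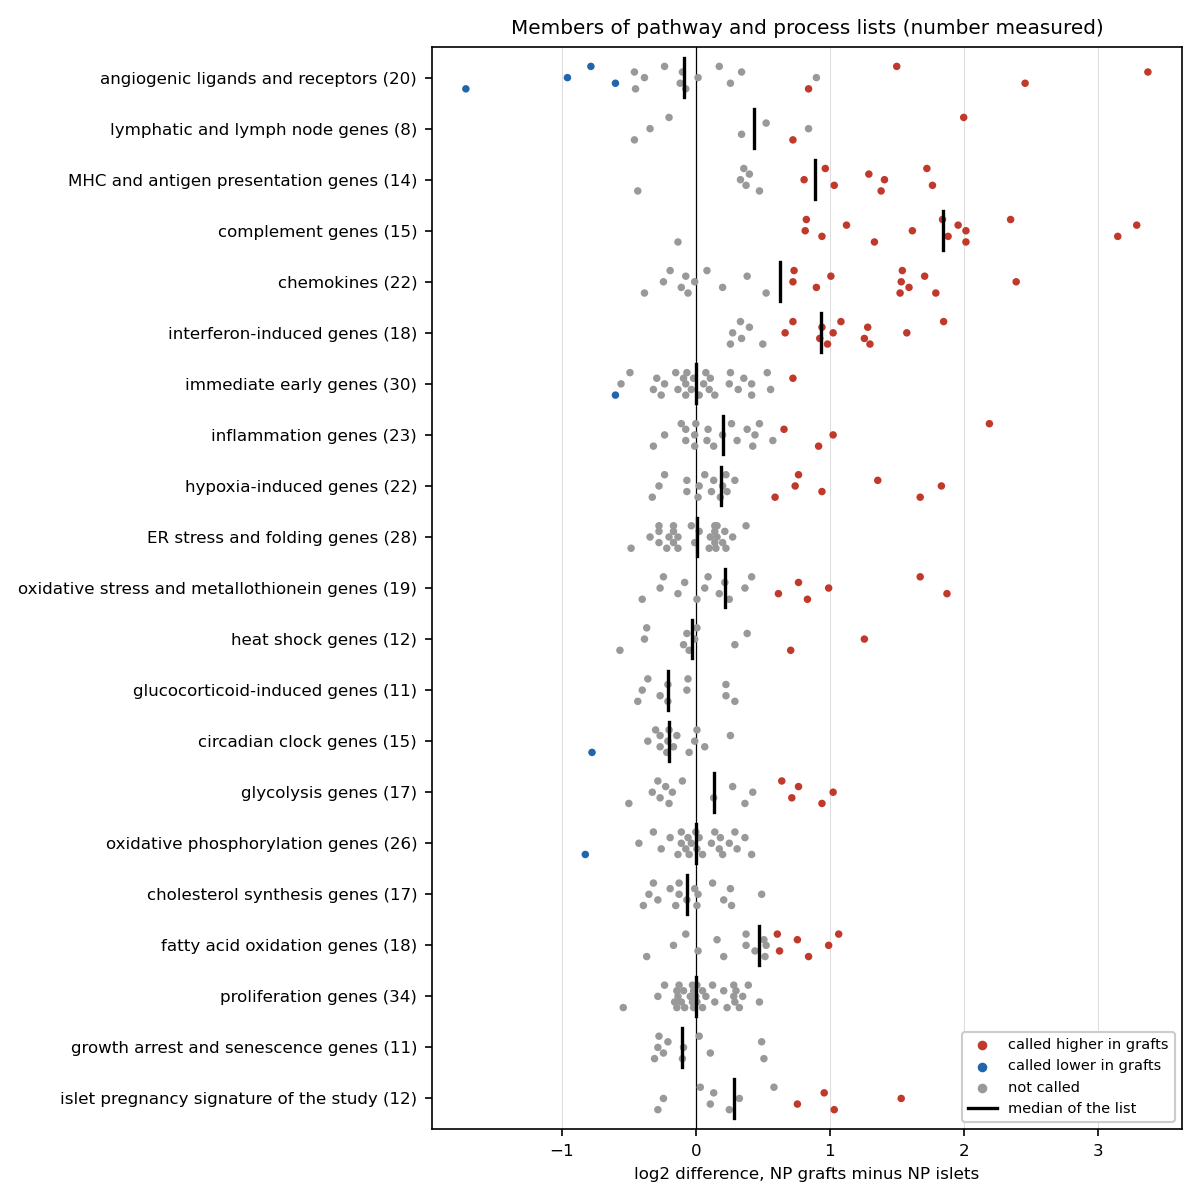
Log2 difference, NP grafts minus NP islets (x axis), of each measured gene (point) in the pathway lists (y axis), coloured by whether it was called higher, called lower or not called, with a bar at each list's median. Complement (median 1.84), interferon-induced (0.93) and antigen presentation genes (0.89) lie to the right, and endoplasmic reticulum stress (0.01) and proliferation genes (0.00) are centred at 0.

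Genes that beta cells keep low although most other tissues express them, sometimes called disallowed, were called higher for 14 of 19 members and lower for 0 (median 0.94). Their mean level was 6.17 to 6.34 in the islets and 7.22 to 7.81 in the grafts. Slc16a1, which encodes the lactate and pyruvate carrier MCT1, was at 4.7, 4.9, 5.0 and 4.6 in the islets and 9.0, 8.8 and 7.5 in the grafts, 12.4-fold higher (3.63 ± 0.34, adjusted p = 3.47e-06). Ldha, the lactate dehydrogenase A gene, was at 7.9, 8.0, 8.1 and 7.7 against 9.1, 9.0 and 8.5 (0.94 ± 0.18, adjusted p = 0.00106). In both genes graft 3 was the lowest graft and lay above all islet samples. The hexokinase genes Hk1 (0.13) and Hk2 (0.37) were not called. The list shares Pdgfra and Igfbp4 (2.92) with the fibroblast list and Cxcl12 (0.90) with the chemokines. Fibroblast genes (21 of 26 higher), macrophage markers (23 of 25) and proximal tubule markers (23 of 29) moved with it, and their part was not tested. At P12.5, 15 of the 19 were called higher (median 1.23).

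None of 28 endoplasmic reticulum stress and folding genes was called (median 0.01), with the chaperone gene Hspa5 at 0.14 and the stress factor Ddit3 at -0.22. Of 22 hypoxia-induced genes 7 were called higher, among them the carbonic anhydrase gene Car12 (1.83) and the vasodilator peptide gene Adm (1.36). Adm lost its call without graft 2, and Car9 (0.18) and Slc2a1 (0.03) were not called. Hmox1, the haem-degrading enzyme gene, was at 5.9, 5.9, 5.9 and 6.0 in the islets and 7.3, 7.8 and 7.7 in the grafts (1.68 ± 0.14, adjusted p = 9.72e-07), without overlap. It was 1 of 6 higher calls among 19 oxidative stress genes, with the catalase gene Cat at 1.88. Proximal tubule (23 of 29) and macrophage markers (23 of 25) were higher too. Their part in the hypoxia and oxidative stress calls was not tested. Of 18 fatty acid oxidation genes 6 were called higher, including the mitochondrial entry enzyme gene Cpt1a (0.99) and Acadm (1.07), and 3 without graft 2. Markers of the proximal tubule, whose cells use fatty acids as fuel, moved with these genes (23 of 29 higher), and their part was not tested. Of 17 glycolysis genes 5 were called higher, and of 26 oxidative phosphorylation genes 1 was called lower, the complex I subunit gene Ndufa1 (-0.82). Over all genes 6.50% were called higher and 2.18% lower. None of 17 cholesterol synthesis genes and none of 11 glucocorticoid-induced genes was called, and among 12 heat shock genes Cryab (1.26) and Hspb1 (0.71) were higher. The call of Hspb1 held without graft 3 but not without any other array, nor with the replicate block.

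None of 34 proliferation genes was called (median 0.00). Mki67, the marker of cycling cells, was at 5.0, 5.3, 5.5 and 5.5 in the islets and 5.5, 5.9 and 6.0 in the grafts (0.47 ± 0.15, adjusted p = 0.0269), under the fold threshold. Among 30 immediate early genes Jun (0.72) was higher and Gadd45b (-0.60) lower, where 6.50% of all genes were called higher and 2.18% lower. Gadd45b lost its call without graft 1 or 3 and without islet array 2 or 3. It also lost it with array medians subtracted and in a fit of the compared arrays alone. Fos (0.26) and Egr1 (0.11) were not called. Of the 12 genes that the study uses as its islet signature of pregnancy 4 were called higher in the NP grafts (median 0.29), and since the study chose them on pregnancy in these islets they are not independent evidence of direction. Gbp8, a guanylate-binding protein gene, was at 5.7, 5.4, 5.3 and 5.2 against 7.0, 7.0 and 6.8 (1.53 ± 0.13, adjusted p = 1.17e-06), with no overlap. The tight junction gene Cldn8 differed by 1.03, the matrix gene Matn2 by 0.96 and the peroxisomal enzyme gene Ehhadh by 0.76. Distal nephron (6 of 18 higher), proximal tubule (23 of 29) and fibroblast genes (21 of 26) moved with them, and their part was not tested. The call of Ehhadh held without islet array 1 but not without any other array, nor with the replicate block. Tph1, the rate-limiting enzyme gene of serotonin synthesis, was at 4.7 to 5.2 in the islets and 4.4 to 4.7 in the grafts (-0.28 ± 0.24, adjusted p = 0.393), at the low end of the scale in both.

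Genes outside the lists were also among the 15 largest differences each way, gene models named by clone alone being left out of that ranking. Car3, the carbonic anhydrase gene of muscle and fat, was at 4.7, 4.9, 5.0 and 5.0 in the islets and 8.7, 10 and 9.5 in the grafts (4.50 ± 0.74, adjusted p = 0.000441). Gpc3, a glypican gene, was at 5.3, 5.2, 5.3 and 4.9 against 9.7, 9.9 and 8.2 (4.09 ± 0.44, adjusted p = 1.57e-05). The ranking took only called genes whose groups did not overlap, so the separation in both genes follows from the selection. Mep1a, a brush border protease gene, differed by 4.17, the flavin monooxygenase gene Fmo2 by 4.01 and the extracellular matrix gene Efemp1 by 3.88. On the lower side the genes outside the lists were Try10 (-4.33), another of the near-identical trypsinogen genes, and Dmbt1. The latter, a mucosal scavenger protein gene, was at 8.4, 8.3, 6.3 and 8.0 against 4.5, 4.7 and 4.4 (-3.22 ± 0.37, adjusted p = 2.64e-05). Islet array 3 was the lowest islet sample there, as it was for the acinar genes, and 13 of the 15 largest differences on the lower side were acinar markers.

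The P12.5 comparison called 804 genes higher (4.03%) and 124 lower (0.622%). Its mean differences use none of the 7 NP arrays, but its SEs and calls draw on the spread pooled over all 20 arrays. The NP and P12.5 calls are therefore not independent. The P12.5 islet arrays are also marked as a reanalysis, and the P12.5 grafts also came from hosts given streptozotocin. Host diabetes and array batch therefore go with transplantation there too. Of the 1296 NP genes called higher 682 were called higher at P12.5 (52.6% of the NP and 84.8% of the P12.5 calls), and of the 434 called lower 82 were (18.9% and 66.1%). The sign was the same at P12.5 for 1259 of the 1296 (97.1%) and 416 of the 434 (95.9%). The share of all genes with the same sign was not computed, so these shares have no background beside them. Acinar, fibroblast, mesothelial, macrophage and complement lists had medians of -3.0, 1.67, 1.29, 1.63 and 1.84 at NP and -2.77, 1.8, 1.83, 1.76 and 1.93 at P12.5. The difference between the comparisons was itself called for 18 of 35511 probe sets (0.0507%), 12 with a more positive and 6 with a more negative graft difference at P12.5. Of the 18, 3 carry a gene symbol: Ppp1r14b (0.92), a phosphatase inhibitor gene, the ribosomal protein gene Rps28 (0.92) and Bloc1s3 (-1.04), a subunit gene of a complex that builds lysosome-related organelles. Bloc1s3 was at 6.9, 7.1, 7.0 and 6.9 in the NP islets and 7.9, 8.2 and 8.1 in the NP grafts (1.09 ± 0.11), and its P12.5 difference was 0.05.

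**Figure D5:**
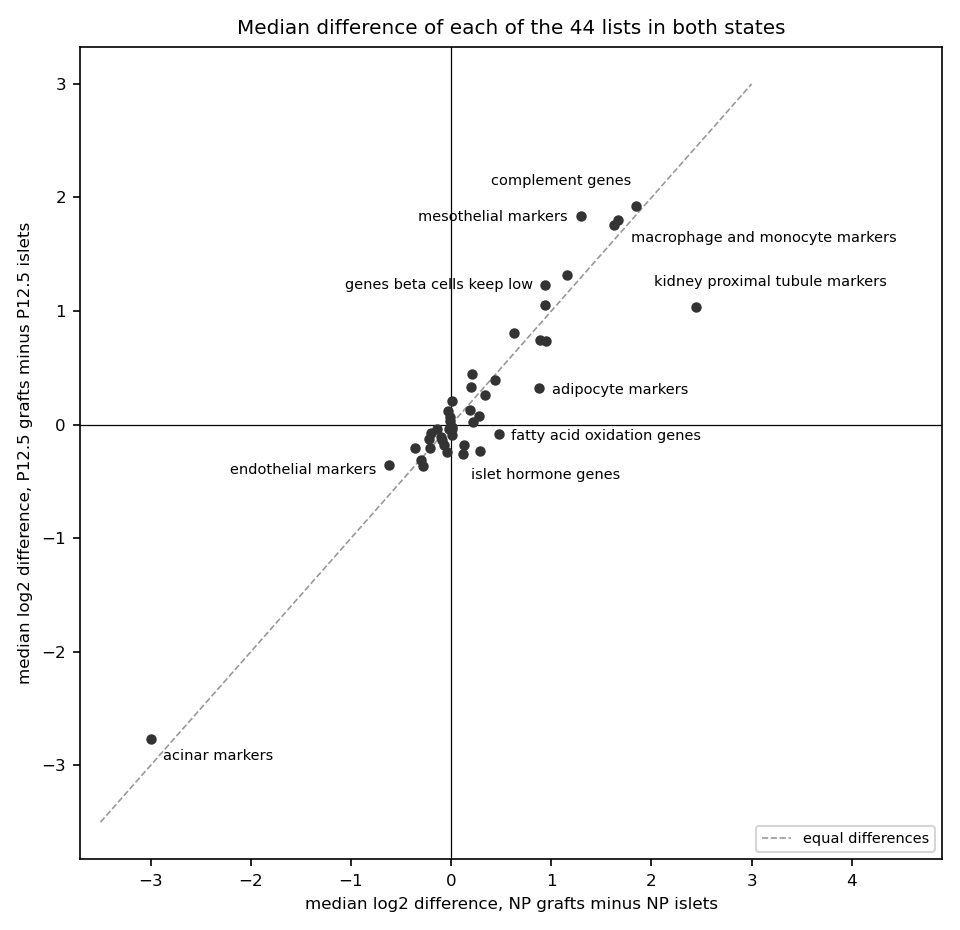
Median log2 difference between grafts and islets of each of the 44 gene lists (points), at NP (x axis) and at P12.5 (y axis), with a dashed line where both are equal. Kidney proximal tubule markers lie farthest below the line (2.44 at NP, 1.03 at P12.5), and acinar markers lie at the lower left (-3.0 and -2.77).

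Probe sets without a gene symbol had another share of calls than genes did. At NP 1523 of 12101 such probe sets were called (12.6%), against 306 (2.53%) at P12.5, and in the XY grafts at NP the share was 11.7%. Of 1621 probe sets that carry several symbols 436 were called at NP (26.9%), 378 of them lower, against 120 (7.40%) at P12.5. For probe sets with 1 symbol the shares were 8.96% at NP and 4.64% at P12.5. Of the 12101 without a symbol, 6572 have numbers below that of the first probe set with a symbol. They hold 801 of the 1523 NP calls, 147 of the 306 at P12.5 and 9 of the 18 for the difference between the comparisons. What the unnamed probe sets measure was not checked, and whether an array batch of the NP samples has a part in these counts was not tested.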

How the data were processed

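Transcripts were measured on Affymetrix MoGene 1.0 ST arrays. The authors summarised the raw array data by robust multichip analysis in the aroma.affymetrix package (background adjustment, quantile normalization, summary per probe set) and deposited log2 values, which are rounded to 1 decimal. The genome build behind the array annotation is not given in the sources used here.

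Of 35511 probe sets, 21789 carry 1 symbol in the array annotation, 1621 carry several and 12101 none. By Entrez identifier 21698 of the first kind were found in the reference table, and 0 symbols needed updating. Each gene was represented by the brightest of its single-symbol probe sets, by the mean of the 20 arrays. In R 4.3.3, limma 3.58.1 (lmFit and eBayes) fitted the means of all 6 groups on 20 arrays. Two-sided p-values were adjusted for all probe sets (Benjamini-Hochberg). The median SE was 0.131, and the number of arrays limits the precision. Errors printed with ± are SEs.

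The members and the 44 gene lists (827 entries, 760 measured) were chosen with earlier results of these data known. Described by rule were the 15 largest differences each way among called genes whose groups do not overlap, and in each list the first 3 genes and up to 4 called members each way, 221 genes in all. Other genes are named to complete a list. Promoters came from RefSeq GRCm38.p6. The fit was tested on simulated data. Alternatives were another fold threshold, array medians subtracted, repeated quantile normalization, array weights, a dim filter at log2 6, the compared arrays alone, the replicate number as a block and each array left out. Restricting the test to probe sets with a symbol was chosen after seeing the data.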

Additional observations from a re-analysis of the deposited data

Results flagged for a closer look

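Among 74 groups of 4 islet samples, those of 44 list levels and 30 genes, 5 held 1 array apart from the other 3 by more than the limit of Dixon's test. Its chance rate of about 1 in 20 holds for unrounded normal values. The values of the genes are rounded to 1 decimal, so a gap of 1 step can pass the limit, and that rate does not apply to them. Cpb1 was at 9.0 in NP islet array 3, which was also the lowest for the acinar list. The other arrays were set apart by no more than a few steps of the rounding, Slc13a1 at 4.4 in array 1, Lrp2 at 5.1 in array 3, Fmo2 at 5.9 in array 2 and Efemp1 at 5.0 in array 4.

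The graft difference at P12.5 differed from that at NP, by the test of the difference itself, for 18 probe sets. Ppp1r14b was lower in the NP grafts (-0.66) and differed by 0.26 at P12.5, a change of 0.92. Rps28 changed by 0.92 as well, from -0.60 to 0.32. Bloc1s3 changed by -1.04. The other 15 carry no gene symbol. In the NP grafts of XY donors Bloc1s3 stood at 8.0 on average, against 8.07 in those of XX donors and 6.98 in the NP islets.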

How the results depend on the processing

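The count of NP calls was 1666 at a fold of at least 2 and 2440 with the test restricted to probe sets with a symbol, a setting chosen after seeing the data, and it ranged from 3381 to 4143 when 1 array was left out. At P12.5 it was 716 at a fold of at least 2, and 771 (without graft 3) to 1417 with 1 array left out. The 18 calls for the difference between them became 10 with array medians subtracted, 118 with array weights, 44 without dim probe sets, 1 among probe sets with a symbol, 231 with the arrays of the groups compared alone, 32 after repeated quantile normalization, and 1 to 15 with 1 array left out. The cause was not tested. The share of higher calls at NP was 54.4%, 60.9% with medians subtracted and 64.1% among probe sets with a symbol, and 47.9% (without NP graft 1) to 55.1% with 1 array left out, so the majority turned to lower calls without graft 1. The difference of Ins2 ran from -0.033 (without NP islet array 1) to 0.23 with 1 array left out. Of 146 named called genes 124 stayed called whichever NP array was left out, and 0 changed direction. Replicate numbers did not pair the samples (r of same-numbered arrays -0.0976, -0.0237 and -0.0144). With the number as a replicate block the counts were 3491, 1099 and 13, and 10 named genes were no longer called, Nkx6-1 and Cd3e among them. Levels near background limit the size of the differences measured.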

Other observations

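The genes Vip, Npy, Tac1, Esm1, Dbp and Nr1d1 were picked after their values were seen and stand for no list. Vip, which encodes vasoactive intestinal peptide of the nerves that enter islets, was at 7.0, 7.5, 7.8 and 5.8 in the islets and 4.9, 4.8 and 4.7 in the grafts (-2.23 ± 0.33, adjusted p = 0.000197), and differed by -2.62 at P12.5. Npy, the neuropeptide Y gene, was at 8.4, 8.7, 8.6 and 8.0 against 7.2, 6.4 and 6.5 (-1.73 ± 0.23). Tac1, which encodes substance P, was at 5.5, 5.4, 6.2 and 4.6 against 3.9, 4.2 and 3.9 (-1.43 ± 0.26). All 3 passed the test. Their groups did not overlap, which held for 31.4% of all genes, and islet array 4 was the lowest islet sample in each. Esm1, which encodes the endothelial proteoglycan endocan, was at 8.4, 8.6, 8.5 and 8.3 against 6.1, 6.3 and 5.7 (-2.42 ± 0.26, adjusted p = 1.68e-05).

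Clock genes differed among the grafts more than between the groups, with 1 call in 15 (Cry2, -0.78, adjusted p = 0.00472). The median SD of the 15 genes was 0.569 among the grafts and 0.126 among the islets, and over all genes 0.153 and 0.126. Other lists were as spread among the grafts, with 0.569 for mesothelial markers, 0.56 for fibroblast genes, 0.493 for complement genes and 0.455 for endothelial markers. Dbp, a transcription factor of the clock's output, was at 7.8 to 8.1 in the islets and 9.5, 7.2 and 7.1 in the grafts. Arntl, a core activator of the clock, was at 7.0 to 7.6 in the islets and 6.1, 7.7 and 8.1 in the grafts. Nr1d1, which represses Arntl, was at 8.9 to 9.1 and 9.7, 8.1 and 8.4. Graft 1 stood opposite grafts 2 and 3 in all 3 genes. The hour at which samples were taken is not given in the sources used here.

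By gene type, 1260 of 18562 protein-coding genes were called higher and 378 lower. Of 297 miRNA genes 8 were higher and 30 lower, and of 726 long non-coding RNA genes 13 were higher and 16 lower. At P12.5 the miRNA genes gave 0 higher and 3 lower calls.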
